A study of Mus musculus with 16 samples.

Results

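Expression of 9 complement genes was followed across 16 whole-brain arrays of male mice that carried or lacked the monocarboxylate transporter Slc5a8. The genes were C4b, C3, C1qa, C1qb, C1qc, C3ar1, C5ar1, Serping1 and Cd59a, and every non-control probe whose gene name on the array equalled one of them was taken. They are 9 of 34821 gene names on the array and were read by 11 of its 55681 probes, of which 10 passed the filter on dim probes, as did 33074 on the whole array. C3 and Serping1 had 2 probes each and the other 7 genes 1 probe each.

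Total RNA of freshly removed whole brain was labelled with Cy3 and hybridised in 1 colour to Agilent mouse arrays. The 4 groups, with 4 arrays each, were Slc5a8-deficient males of 18 months (old deficient), Slc5a8-deficient males of 4 months (young deficient), wild-type males of 18 months (old wild type) and wild-type males of 4 months (young wild type). The labels give C57BL/6J for all 16 mice, with the entries for strain and age interchanged, and the 4 arrays of a condition are given as biological replicates. How the deficiency was made, and whether the genotypes were littermates, is not given in the sources used here. The probe for Slc5a8, the targeted gene, was well above background on 0 of 16 arrays, so it does not check the genotype labels.

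Complement is a cascade of plasma and tissue proteins. In the classical pathway C1q, a hexamer built from the A, B and C chains, binds a surface and starts the cleavage of C4 and then of C3, whose fragments mark the surface for uptake by cells with complement receptors. The small fragments C3a and C5a signal through their own receptors, and soluble and membrane-bound inhibitors hold the cascade in check. In brain, C1q is made chiefly by microglia, while C4 and C3 are made by astrocytes and other glia, and C1q and C3 are known for the tagging of synapses.

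Levels are log2 of the processed signal minus the 75th percentile of that signal on the array, so 0 is the level below which 75% of the non-control signals of an array fall. Differences are log2 differences ± SE from limma's fit of all 4 groups with n = 4 arrays per group, and a probe is called when its p-value, adjusted by Benjamini and Hochberg over all 33074 kept probes, is under 0.05. All 10 kept complement probes were well above background on all 16 arrays. The scanner files listed 59305 non-control spots per array, 58.4% to 66.1% of them well above background, with 75th percentiles of the processed signal between 624 and 1346. The 14 microglial, 8 astrocytic, 7 oligodendrocytic and 6 neuronal marker genes that were looked up all passed the filter, with neuronal means of 5.77 to 6.14 over the 16 arrays. Young deficient array 1 stood apart: its score on the first principal component, which held 28.7% of the variance, was 117, and the other 15 arrays scored between -32.0 and 31.0. Each genotype lay on a slide of its own, and the effect of the slide cannot be told apart from that of genotype. Within a slide the ages lay in different rows, so row and age coincide within a genotype. The row was balanced in the differences averaged over both genotypes or both ages.

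C4b, which encodes a form of C4, was higher at 18 months than at 4 months in both genotypes, and it was the only one of the 9 genes called in any comparison. Its probe lies at chr17:34865328-34865387 on the minus strand (NCBI37/mm9) and starts at base 5331 of its transcript. The first 30 of its 60 bases are shown because the only called differences rest on this probe.
C4b: cctcactggattagaggctctgctctacag
The scanner files give this probe under C4b, but its accessions include one that the RefSeq table assigns to C4a, a near-identical neighbour. No probe carries the name C4a on this array, so the signals of C4b and C4a cannot be told apart here.

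C4b levels were 3.29, 3.20, 3.01 and 3.04 on the old deficient arrays, against 2.08, 2.02, 2.08 and 1.79 on the young deficient arrays. All 4 old deficient arrays lay above all 4 young ones, with no overlap. The difference was 1.14 ± 0.13, a 2.20-fold higher signal in old deficient brains (limma, adjusted p = 0.00101). In this comparison 2.1% of all kept probes were called and 8.18% had their 4 old arrays above their 4 young arrays. In wild-type brains C4b had levels of 3.06, 2.93, 3.11 and 2.63 at 18 months, against 2.05, 1.83, 2.20 and 2.33 at 4 months. Again the groups did not overlap, with old array 4 the nearest to the young ones. The difference was 0.83 ± 0.13, or 1.78-fold (limma, adjusted p = 0.00842), in a comparison in which 0.375% of the kept probes were called and 1.34% lay higher without overlap. When the 2 wild-type groups were fitted alone the same difference had an adjusted p of 0.105.

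Averaged over both genotypes, C4b was 0.98 ± 0.09 higher at 18 months (limma, adjusted p = 6.4e-05), where 1.45% of the kept probes were called. The rise in deficient brains exceeded that in wild-type brains by 0.31 ± 0.19, which did not pass the test (limma, adjusted p = 0.557, 95% interval -0.09 to 0.71). Between genotypes C4b differed by 0.20 ± 0.13 at 18 months, deficient minus wild type (95% interval -0.08 to 0.48), and by -0.11 ± 0.13 at 4 months (95% interval -0.39 to 0.17). Neither was called, and the groups overlapped at both ages. The mean level of C4b at 18 months was 3.14 ± 0.13 in deficient and 2.93 ± 0.22 in wild-type brains, and at 4 months 1.995 ± 0.14 in deficient and 2.11 ± 0.21 in wild-type brains (SD, n = 4 each). By mean the old deficient group was thus the highest and the young deficient group the lowest. Only the step between the 2 old and the 2 young groups was larger than the spread of the arrays.

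**Figure D1:**
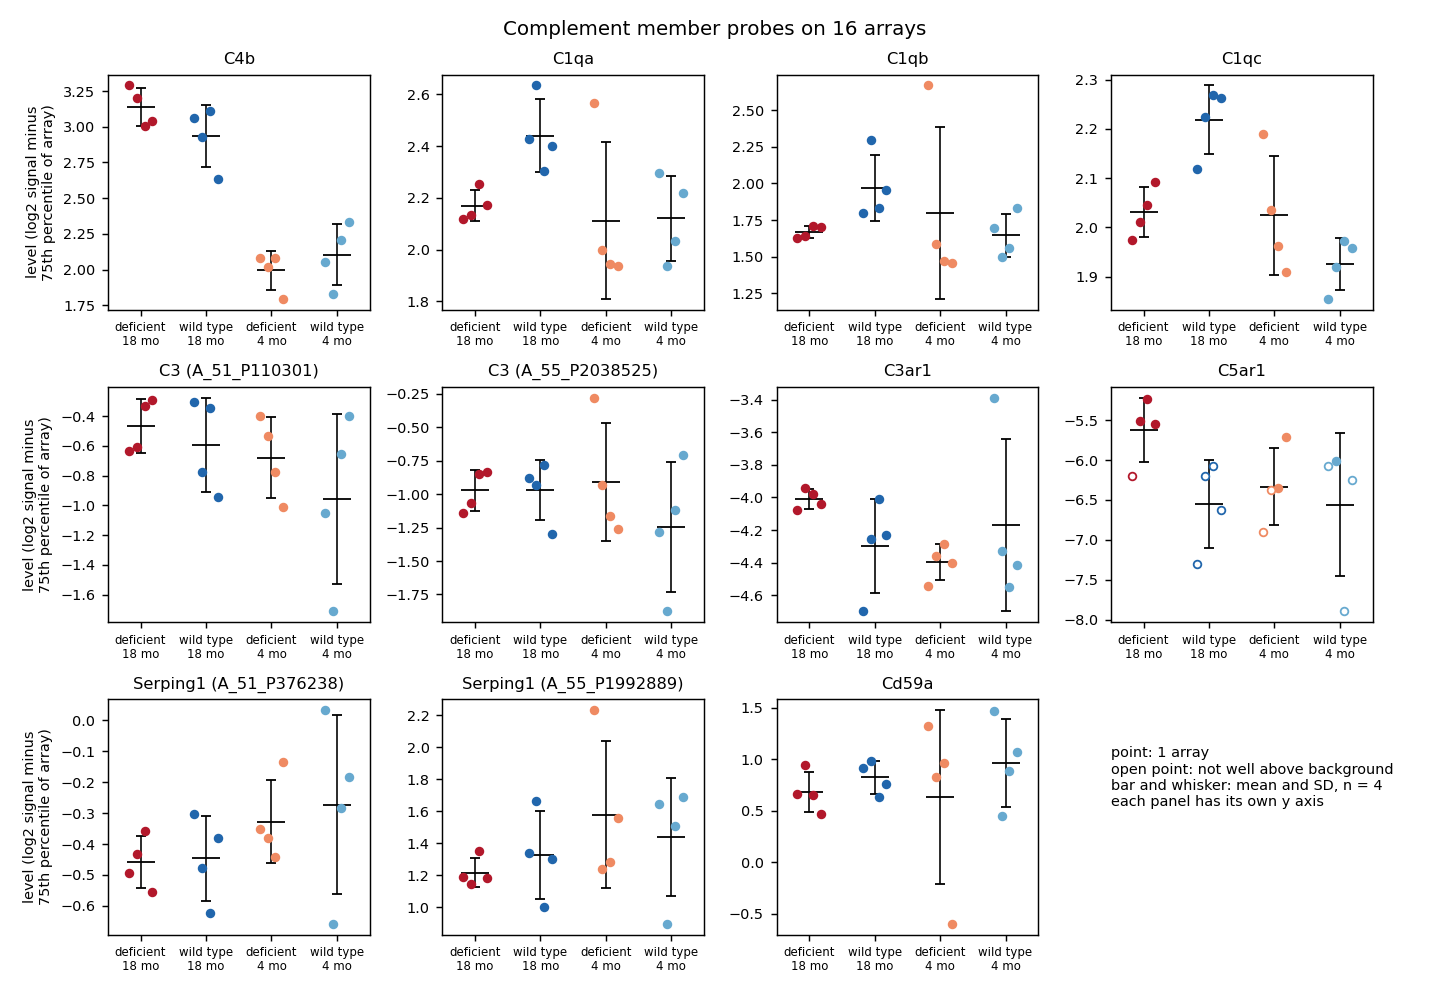
Levels of the 11 complement probes on 16 arrays, as log2 signal minus the array's 75th percentile, with each group's mean and SD (n = 4) and a separate y axis for each panel. For C4b the 8 arrays of 18 months lie between 2.63 and 3.29, above the 8 arrays of 4 months, which lie between 1.79 and 2.33, and open points of C5ar1 mark arrays on which it was not well above background.

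In bulk tissue, more cells of a type and more RNA per cell cannot be told apart, and this holds for C4b and for all genes below. Some markers moved with age in the same samples. Of all genes, 2.14% were called with age in deficient brains, 0.395% in wild-type brains and 1.5% averaged over genotypes, in either direction. Of 5 genes of red blood cells, 4 were called lower in old than in young deficient brains, and their mean level was -0.56 to 1.64 on the old deficient arrays against 1.72 to 3.63 on the young deficient arrays. In wild-type brains 0 of these 5 were called with age. Of 8 markers of meningeal fibroblasts, 3 (Col1a1, Col1a2 and Col3a1) were called lower at 18 months averaged over genotypes, with a median of -0.29 over the 8, and 1 was called lower in deficient and 0 in wild-type brains. Their mean level was -0.16 to 0.28 in old deficient against 0.28 to 0.78 in young deficient brains, and -0.12 to 0.32 in old against 0.10 to 0.51 in young wild-type brains. The 3 measured markers of neutrophils and monocytes had a median age difference of -2.02 in deficient brains, with 0 called. All 8 choroid plexus markers had lower means at 18 months in wild-type brains, with a median difference of -0.70 and 0 called. In deficient brains 6 of the 8 did, with a median of -0.33 and 0 called. C4 is also a product of the liver, and of 3 hepatocyte markers 1 lay below the filter and the other 2 (Apoa2 and Serpina1a) had mean levels of -0.79 to -0.56 in old deficient against -1.46 to -0.40 in young deficient brains, and of -0.89 to -0.53 in old against -1.33 to -0.75 in young wild-type brains. Serpina1a was called higher at 18 months averaged over genotypes, by 0.72. Of 8 astrocyte markers 1 was called lower and of 7 oligodendrocyte markers 1 was called higher with age in deficient brains. In wild-type brains 0 of either were called. Yet 6 of the 7 oligodendrocyte markers had lower means with age in deficient brains, with a median of -0.33. In wild-type brains all 7 did, with a median of -0.20. Of the 14 microglial markers 0 were called with age in either genotype. In wild-type brains 11 of the 14 had higher means at 18 months, with a median of 0.25. Their mean level was 1.88 to 1.99 in old against 1.61 to 1.84 in young wild-type brains. In deficient brains 6 of the 14 were higher, with a median of -0.09. The part of these markers in the C4b difference was not tested.

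C4b was compared with 14023 genes that were well above background on all 16 arrays and whose name is not a clone, model or accession number. Those with the array-to-array pattern most like C4b were Clec7a, Ppl, Txlnb, Ccdc88b and NEAT1. Likeness was the root mean square difference between levels centred on their own means over the 16 arrays. It was 0.21 for Clec7a, 0.23 for Ppl, 0.27 for Txlnb, 0.27 for Ccdc88b and 0.28 for NEAT1, on a scale where the 16 levels of C4b had an SD of 0.52. Clec7a was 0.98 higher with age in deficient and 0.84 higher in wild-type brains. NEAT1 was 1.03 higher with age in deficient brains and 0.20 higher in wild-type brains. The nearest complement member to C4b was C3, at 0.44.

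C1qa, C1qb and C1qc, the 3 chains of C1q, had their highest means in old wild-type brains, and none of them was called in any comparison. The probe of each chain lies on the minus strand of chromosome 4 (NCBI37/mm9), C1qb at chr4:136436578-136436637, C1qc at chr4:136445766-136445825 and C1qa at chr4:136452409-136452468. They start at bases 484, 945 and 444 of their transcripts. The sequences are shown because the chains are read side by side: all 60 bases for C1qa and C1qb, and the first 30 for C1qc.
C1qa: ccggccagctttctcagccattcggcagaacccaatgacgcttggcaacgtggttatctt
C1qb: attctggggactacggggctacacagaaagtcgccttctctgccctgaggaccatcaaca
C1qc: tctgggaaccacctaatggtattattcctg

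At 18 months, C1qa, the A chain, had levels of 2.12, 2.14, 2.25 and 2.17 in deficient brains, against 2.43, 2.64, 2.30 and 2.40 in wild-type brains. C1qb, the B chain, had levels of 1.63, 1.64, 1.71 and 1.70 in old deficient brains, against 1.80, 2.29, 1.84 and 1.96 in old wild-type brains. C1qc, the C chain, had levels of 1.97, 2.01, 2.05 and 2.09 in old deficient brains, against 2.12, 2.22, 2.27 and 2.26 in old wild-type brains. For all 3 chains the 4 deficient arrays lay below the 4 wild-type arrays without overlap, a pattern seen in 3.55% of the kept probes. The differences were -0.27 ± 0.14 for C1qa, -0.30 ± 0.21 for C1qb and -0.19 ± 0.08 for C1qc. Their adjusted p-values in the limma fit were 0.556, 0.762 and 0.455, in a comparison in which 1.35% of the kept probes were called. Young deficient array 1, the array that stood apart, is not in this comparison but enters the spread shared by all 4 groups. Without it the differences were the same, with SEs of 0.09, 0.11 and 0.07. The limma adjusted p-values were then 0.198, 0.214 and 0.227, still not called. In that fit 693 of the 33074 kept probes were called. The 3 probes lie close together on chromosome 4 and read the same RNA samples, so they are not independent of each other.

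In wild-type brains the C1q chains had higher means at 18 than at 4 months, without a call. C1qa was 0.32 ± 0.14 higher at 18 than at 4 months (unadjusted p = 0.0336, limma adjusted p = 0.714), with the 4 old arrays between 2.30 and 2.64 and the 4 young arrays between 1.94 and 2.30. For C1qc the difference was 0.29 ± 0.08 (unadjusted p = 0.00312, limma adjusted p = 0.264), with old arrays between 2.12 and 2.27 and young arrays at 1.85, 1.92, 1.97 and 1.96. Neither chain overlapped between the ages, and 1.34% of the kept probes lay higher without overlap. C1qb differed by 0.33 ± 0.21 and overlapped, its young arrays reading 1.69, 1.495, 1.56 and 1.83. With young deficient array 1 left out of the shared spread, the differences of the chains were the same. Their limma adjusted p-values were then 0.234 for C1qa, 0.337 for C1qb and 0.101 for C1qc, still not called. The 14 microglial markers had a median age difference of 0.25 in the same wild-type brains, with 0 called. Their part in the age difference of the C1q chains was not tested.

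In deficient brains the age differences of the chains were 0.06 ± 0.14 for C1qa, -0.13 ± 0.21 for C1qb and 0.01 ± 0.08 for C1qc. These values depend on young deficient array 1, the array that stood apart. Its levels were 2.57 for C1qa, 2.67 for C1qb and 2.19 for C1qc, while the other 3 young deficient arrays lay at 1.94 to 2.001, 1.46 to 1.59 and 1.91 to 2.04. Without that array the age differences in deficient brains were 0.21 ± 0.10 for C1qa, 0.16 ± 0.12 for C1qb and 0.06 ± 0.07 for C1qc, still not called. The genotype difference at 4 months was -0.01 for C1qa and 0.15 for C1qb with the array, and -0.16 and -0.14 without it. For C1qc it was 0.10 with the array and 0.04 without it.

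Whether the age difference of the C1q chains depended on genotype was tested by the interaction, in which 0.236% of the kept probes were called. For C1qc the age difference in deficient brains minus that in wild-type brains was -0.29 ± 0.12 (unadjusted p = 0.0280, limma adjusted p = 0.409). For C1qa the interaction was -0.26 ± 0.19 and for C1qb -0.45 ± 0.30. Without young deficient array 1 they were -0.23 for C1qc, -0.11 for C1qa and -0.16 for C1qb. The slide row coincides with this contrast, so the 2 cannot be told apart.

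**Figure D2:**
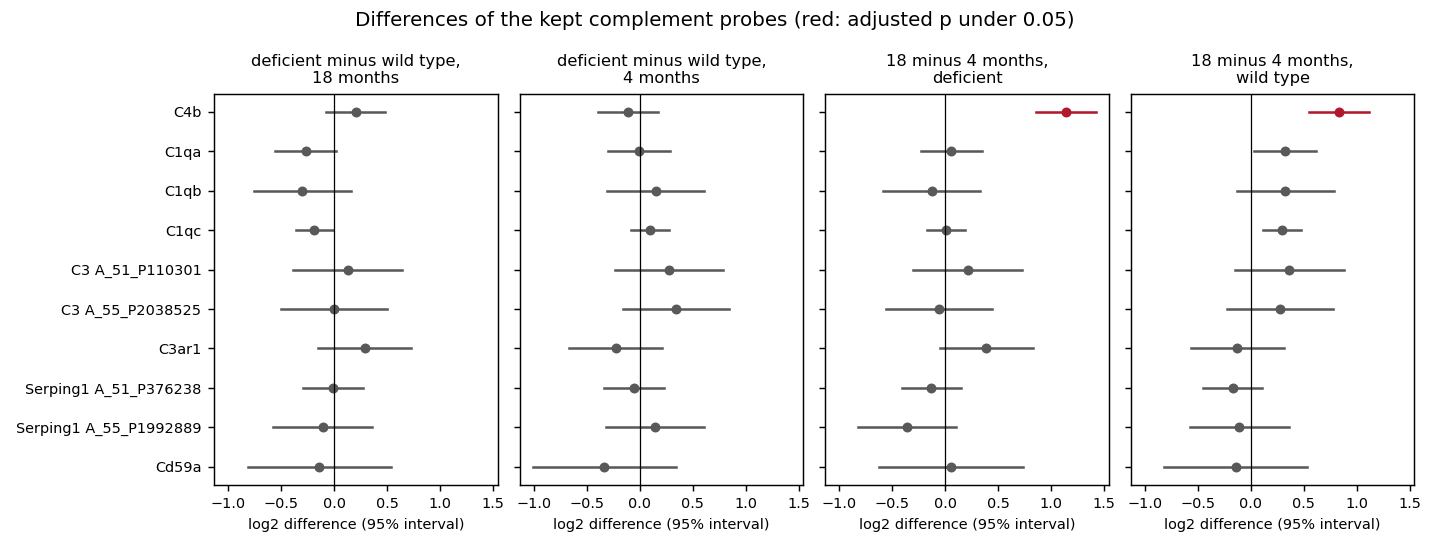
Log2 differences of the 10 kept complement probes, with 95% intervals from limma's fit, for deficient minus wild type at each age and 18 minus 4 months in each genotype. The intervals of C4b with age, in red, start at 0.86 in deficient and 0.55 in wild-type brains, and the 3 C1q chains lie left of 0 for genotype at 18 months.

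Some markers of microglia and of blood were lower in deficient brains at 18 months, where the C1q chains of the genotypes did not overlap. The mean of the 3 chains was 1.91 to 2.002 in old deficient brains, against 2.12 to 2.38 in old wild-type brains. The mean of the 14 microglial markers was 1.61 to 1.69 in old deficient brains, against 1.88 to 1.99 in old wild-type brains. At 18 months 12 of the 14 microglial markers had lower means in deficient brains, with a median difference of -0.26, and 2 of them (Ly86 at -1.25 and Trem2 at -0.78) were called lower, against 0.534% of all genes. At 4 months 2 of the 14 (Ly86 at -0.65 and Sall1 at -0.45) were called lower in deficient brains, against 0.786% of all genes, with a median difference of -0.10 over the 14. Averaged over ages 4 of the 14 (Ly86, Trem2, Fcrls and Sall1) were called lower, against 1.44% of all genes. At 4 months the C1q mean was 1.77 to 2.47 in deficient and 1.78 to 2.002 in wild-type brains, and the microglial mean was 1.51 to 1.73 in deficient and 1.61 to 1.84 in wild-type brains. The C1q mean minus the microglial mean was 0.33 ± 0.07 in deficient and 0.26 ± 0.10 in wild-type brains at 18 months, and 0.37 ± 0.39 in deficient and 0.17 ± 0.18 in wild-type brains at 4 months (SD, n = 4 each). Of 5 genes of red blood cells, 3 (Alas2, Hbb-b1 and Hbb-b2) were called lower in deficient brains at 18 months and 0 were called at 4 months. The median difference of the 5 at 18 months was -1.99, and their mean level was -0.56 to 1.64 in old deficient against 1.76 to 2.42 in old wild-type brains. All 3 measured markers of neutrophils and monocytes had lower means in old deficient brains and 0 were called, with a median difference of -1.36 and mean levels of -3.15 to -1.67 in old deficient against -2.57 to -0.46 in old wild-type brains. All 8 choroid plexus markers had lower means in deficient brains at both ages, and 0 were called. The median difference of the 8 was -0.21 at 18 months and -0.75 at 4 months. The part of the microglial, blood, neutrophil and choroid plexus markers in the C1q difference was not tested.

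**Figure D3:**
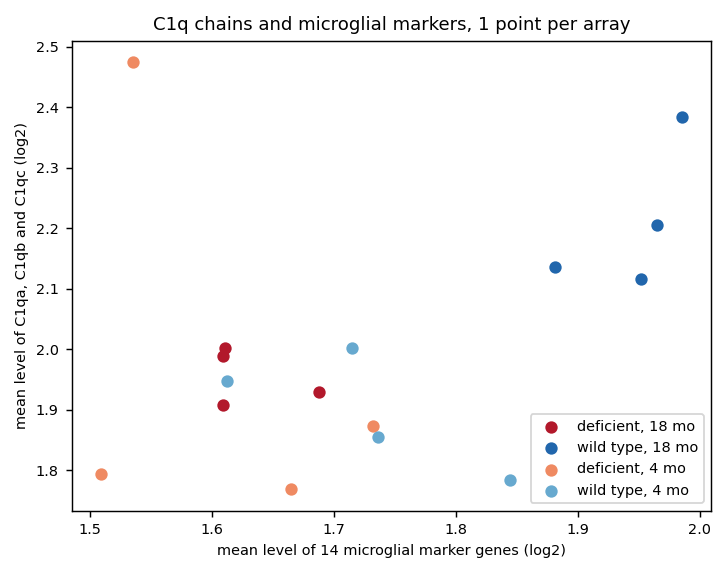
Mean level of C1qa, C1qb and C1qc against the mean level of 14 microglial marker genes, both in log2, with 1 point for each of the 16 arrays. The 4 old wild-type arrays lie at the upper right, and young deficient array 1, with a C1q mean of 2.47, lies above the other arrays at a microglial mean of 1.53.

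Over the 16 arrays the C1q chains were nearer to each other than to any other complement member. The root mean square difference was 0.15 for C1qa and C1qc, 0.16 for C1qa and C1qb and 0.24 for C1qb and C1qc. C1qb and Serping1 came next at 0.25. Among the 14023 genes compared, the pattern most like the mean of the 3 chains was that of Tmem192 (0.094), Mnt (0.098), N4bp3 (0.098), Ncf4 (0.109) and Cd3eap (0.109). On this scale the C1q mean had an SD of 0.20. Young deficient array 1 had the highest C1q mean of the 16 arrays, 2.47, and these likenesses were not taken without it. The C1qc probe was printed as 10 spots. Those spots had an SD of 0.02 to 0.06 within an array, and the arrays of a group had an SD of 0.05 to 0.12.

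C3, the central component on which the pathways converge, overlapped between the groups in all 4 simple comparisons, and neither of its probes was called. Its probes lie at chr17:57343416-57343475 and chr17:57343678-57343737 (minus strand, NCBI37/mm9). The first 30 bases of the first and all 60 of the second are shown, since they read different stretches of the same transcript.
C3 A_51_P110301: attcacagaatctatggtggtttatggttg
C3 A_55_P2038525: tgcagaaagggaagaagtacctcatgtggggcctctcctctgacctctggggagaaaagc
The first probe, printed as 10 spots, had levels of -0.63, -0.61, -0.33 and -0.29 in old deficient brains and -0.40, -0.53, -0.78 and -1.01 in young deficient brains. In wild-type brains it had levels of -0.31, -0.77, -0.34 and -0.95 at 18 months and -1.05, -1.71, -0.65 and -0.40 at 4 months. The young wild-type arrays spread over the widest range, with an SD of 0.57, against an SD of 0.03 to 0.09 between the spots of this probe within an array.

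The age difference of C3 was 0.21 ± 0.24 in deficient and 0.36 ± 0.24 in wild-type brains by the first probe, and -0.06 ± 0.23 and 0.28 ± 0.23 by the second. The genotype difference was 0.13 ± 0.24 at 18 months and 0.28 ± 0.24 at 4 months by the first probe, and -0.00 ± 0.23 and 0.34 ± 0.23 by the second. The age difference in wild-type brains and the genotype difference at 4 months depend on single young wild-type arrays. Without array 2 the first probe gave 0.11 for age in wild-type brains and 0.02 for genotype at 4 months. Without array 4 it gave 0.55 and 0.46. The probes gave opposite signs for age in deficient brains, where young deficient array 1 read -0.28 on the second probe and the other 3 arrays -1.26 to -0.93. Without that array the second probe gave 0.15 ± 0.21 for age in deficient brains. The 95% intervals for genotype at 18 months ran from -0.39 to 0.64 and from -0.50 to 0.50.

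The receptors were dim. C3ar1, the receptor for C3a, was read by a probe at chr6:122798222-122798281 (minus strand, NCBI37/mm9). It had levels of -4.08, -3.94, -3.98 and -4.04 in old deficient brains, against -4.54, -4.36, -4.29 and -4.40 in young deficient brains. All 4 old arrays lay above the 4 young ones, as for 8.18% of all kept probes, but the difference of 0.39 ± 0.21 was not called (limma, adjusted p = 0.295). With normexp background correction it was 0.14, and it was 0.20 by the deposited values. In wild-type brains C3ar1 had levels of -4.69, -4.26, -4.01 and -4.23 at 18 months and -3.39, -4.33, -4.55 and -4.41 at 4 months. These overlapped, with young wild-type array 1 the highest of all 16. The age difference in wild-type brains was -0.13 ± 0.21, the interaction was 0.51 ± 0.29 (limma, adjusted p = 0.536) and the genotype differences were 0.29 ± 0.21 at 18 months and -0.23 ± 0.21 at 4 months. Without young wild-type array 1 the age difference in wild-type brains was 0.13 and the interaction 0.25, and with normexp the interaction was 0.19.

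C5ar1, the receptor for C5a, did not pass the filter in any group. Its probe lies at chr7:16832243-16832302 (minus strand, NCBI37/mm9). It was well above background on 3 of 4 old deficient, 2 of 4 young deficient, 0 of 4 old wild-type and 1 of 4 young wild-type arrays. Levels were -6.19, -5.51, -5.24 and -5.55 in old deficient brains, against -7.29, -6.20, -6.07 and -6.62 in old wild-type brains, none of them well above background. The measured difference at 18 months was 0.92, with an exact two-sided permutation p of 0.0571 (0.114 adjusted over 4 comparisons). With 4 against 4 arrays the smallest p is 0.0286. This difference rests on 3 arrays well above background out of 8, and no fold is given for it. In young brains the levels were -6.90, -6.38, -6.35 and -5.72 in deficient and -6.08, -6.01, -7.89 and -6.25 in wild-type brains. The age difference in deficient brains was 0.71 (exact two-sided permutation p = 0.0571).

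The inhibitors did not pass the test in any comparison, and their groups overlapped in each of the 4 simple ones. Serping1 encodes the C1 inhibitor, which blocks the proteases bound to C1q. Its probes lie on the minus strand of chromosome 2 (NCBI37/mm9): one covers chr2:84605968-84607474, so its 60 bases span 1507 genomic bases and cross a splice junction, and the other lies at chr2:84605663-84605722. The junction probe had levels of -0.55 to -0.36 in old deficient, -0.62 to -0.30 in old wild-type, -0.44 to -0.13 in young deficient and -0.66 to 0.03 in young wild-type brains. Its age differences were -0.13 ± 0.13 in deficient and -0.17 ± 0.13 in wild-type brains. The other Serping1 probe had levels of 1.19, 1.14, 1.35 and 1.18 in old deficient brains, against 2.23, 1.24, 1.28 and 1.56 in young deficient brains. Its age difference in deficient brains was -0.36 ± 0.22, and -0.14 ± 0.18 without young deficient array 1, which was its highest array.

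Cd59a encodes a membrane-anchored protein that blocks the assembly of the membrane attack complex. Its probe lies at chr2:103954688-103954747 on the plus strand (NCBI37/mm9). Cd59a had levels of 0.66, 0.95, 0.66 and 0.47 in old deficient and 0.92, 0.98, 0.63 and 0.76 in old wild-type brains. In young brains its levels were 1.33, 0.83, 0.97 and -0.60 in deficient and 1.47, 0.45, 0.88 and 1.07 in wild-type mice. The young deficient arrays had an SD of 0.85, the widest spread of any kept complement probe in a group, with array 4 the lowest of all 16. The genotype differences of Cd59a were -0.14 ± 0.32 at 18 months and -0.34 ± 0.32 at 4 months, with the 95% interval at 4 months between -1.01 and 0.34. Without young deficient array 4 the 4-month difference was 0.07, with the opposite sign.

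Over the 10 kept probes together, 0 were called for genotype at 18 months, 0 at 4 months (where 1.43% of the kept probes were called), 0 for genotype averaged over ages (3.12%) and 0 for the interaction. At an unadjusted p under 0.05 in the limma fit the counts were 1, 0, 0 and 1. For age they were 1 in deficient brains, 3 in wild-type brains and 2 averaged over genotypes. The share of all kept probes under this threshold is not given here, so these counts cannot be set against the whole array. With age, C4b was the 1 probe called in each genotype and in their average. The median difference of the 10 probes was -0.06 for genotype at 18 months, 0.04 at 4 months, 0.03 for age in deficient and 0.28 for age in wild-type brains, against medians of 0.01, 0.02, -0.00 and 0.01 over all kept probes. Groups did not overlap for 3 of the 10 probes for genotype at 18 months (8.03% of all kept probes), 0 at 4 months (9.41%), 2 for age in deficient brains (17.4%) and 3 for age in wild-type brains (3.53%).

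A wider list of 40 further complement genes was looked up to set the members in their pathway. Of these 39 had a named probe on the array and 27 passed the filter, while 12 lay below it: C6, C7, C8a, C8b, C9, Cfd, Cfi, Masp1, Mbl1, Fcnb, C4bp and Vsig4. In the 27 measured genes, read by the brightest kept probe of each, 1 was called for genotype at each age, 0 for age in either genotype and 1 for age averaged over genotypes. On the whole array 1.39% of genes were called for genotype at 18 months, 1.42% at 4 months, 2.14% for age in deficient brains, 0.395% for age in wild-type brains and 1.5% for age averaged over genotypes. The median difference of the 27 was 0.11 for genotype at 18 months, -0.04 at 4 months, 0.06 for age in deficient and -0.02 for age in wild-type brains, against medians over all genes of 0.01, 0.02, -0.02 and 0.00.

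Fcna, which encodes ficolin A, a lectin that can start the lectin pathway, was higher in deficient brains at both ages. Its levels were -3.46, -3.15, -4.33 and -3.73 in old deficient brains, against -4.87, -4.57, -5.11 and -4.66 in old wild-type brains. In young brains it had levels of -3.49, -3.97, -3.83 and -4.02 in deficient mice, against -4.84, -4.88, -4.96 and -4.77 in wild-type mice. All 8 deficient arrays lay above all 8 wild-type arrays. With 4 against 4 arrays, 8.03% of the kept probes at 18 months and 9.41% at 4 months had no overlap, in either direction. The share with all 8 deficient arrays above all 8 wild-type arrays is not given here. The difference was 1.14 ± 0.20 at 18 months (2.20-fold, limma adjusted p = 0.00923) and 1.04 ± 0.20 at 4 months (2.05-fold, limma adjusted p = 0.0233).

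Averaged over ages Fcna differed by 1.09 ± 0.14 (limma, adjusted p = 0.000512) and the interaction was 0.10 ± 0.29. The 4-month call was the less firm of the 2: it was lost when any 1 of 5 arrays was left out, with adjusted p-values of 0.0508 to 0.0654. These were young deficient arrays 1 and 3 and young wild-type arrays 1, 2 and 3. With normexp background correction the differences were 0.44 at 18 months and 0.45 at 4 months and neither was called (adjusted p = 0.412 and 0.220). Macrophages are a known source of ficolin A. Of 5 measured markers of border macrophages 1, F13a1, was called higher in old deficient brains, by 0.54, and 0 were called at 4 months. Of all genes, 1.39% were called at 18 months and 1.42% at 4 months, in either direction. The median genotype difference of the 5 markers was 0.06 at 18 months and 0.03 at 4 months. The mean of these 5 markers was -1.79 to -1.26 in old deficient against -2.06 to -1.501 in old wild-type brains, and -1.81 to -1.28 in young deficient against -1.60 to -1.45 in young wild-type brains. The 5 genes of red blood cells had a median genotype difference of -1.99 at 18 months, with 3 called lower against 0.534% of all genes. At 4 months their median was -0.01, with 0 called. The part of these markers in the Fcna difference was not tested, and the slide cannot be told apart from genotype for it either.

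Cd93, a receptor-like membrane protein once described as a C1q receptor, was lower at 18 months. It had levels of 0.84, 0.72, 0.97 and 0.79 in old deficient brains, against 1.34, 1.37, 1.18 and 1.17 in young deficient brains. In wild-type brains the levels were 1.02, 1.15, 1.01 and 0.70 at 18 months, against 1.34, 1.21, 1.39 and 1.69 at 4 months. The groups did not overlap in either genotype, as for 17.4% of the kept probes in deficient and 3.53% in wild-type brains. Averaged over genotypes the difference was -0.44 ± 0.08 (limma, adjusted p = 0.0185), and it was -0.44 ± 0.12 within deficient (adjusted p = 0.0696) and -0.44 ± 0.12 within wild-type brains (adjusted p = 0.237). The averaged call was lost without old deficient array 2 (adjusted p = 0.0523). Cd93 is made by endothelium. The mean of 6 endothelial markers was lower with age without overlap in both genotypes. It was 1.29 to 1.39 in old deficient against 1.43 to 1.59 in young deficient brains. In wild-type brains it was 1.36 to 1.49 in old against 1.504 to 1.67 in young mice. Of the 6 markers 4 had lower means with age in deficient and all 6 in wild-type brains, and 0 were called. The part of these markers in the Cd93 difference was not tested.

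Of the other complement genes with small p-values, Itgax, a subunit of complement receptor 4, was 0.86 ± 0.20 higher with age in wild-type brains (limma, adjusted p = 0.0906) and 0.28 ± 0.20 in deficient brains. In wild-type brains the difference was 0.35 with normexp and 0.48 by the deposited values. Its old wild-type arrays lay between -4.40 and -3.70 and its young ones between -5.26 and -4.70. C1ra, a protease of the C1 complex, differed with age by 0.58 ± 0.19 in deficient (adjusted p = 0.123) and 0.06 ± 0.19 in wild-type brains. Cr2, a receptor for C3 fragments, differed by 0.40 ± 0.14 between genotypes at 18 months (adjusted p = 0.269), and Vtn, or vitronectin, a soluble inhibitor of the terminal complex, by 0.27 ± 0.10 at 4 months (adjusted p = 0.180).

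**Figure D4:**
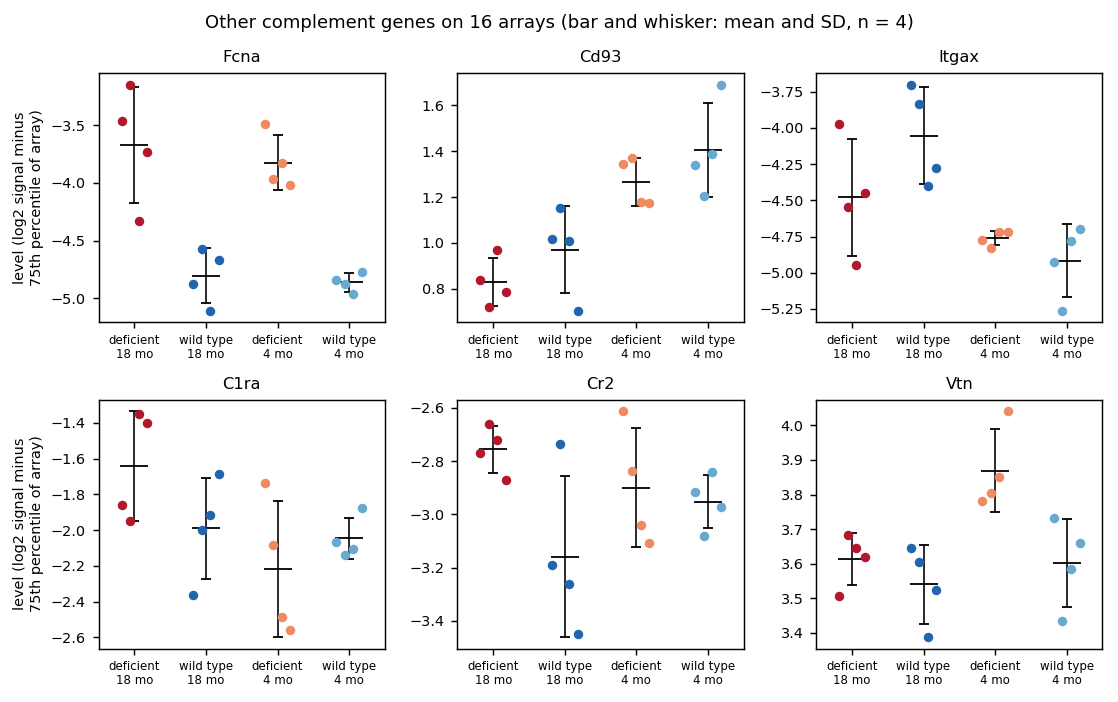
Levels of 6 genes of the wider complement list on 16 arrays, as log2 signal minus the array's 75th percentile, with each group's mean and SD (n = 4) and panels with their own y axes. Fcna lies between -4.33 and -3.15 on the 8 deficient arrays and between -5.11 and -4.57 on the 8 wild-type arrays, and Cd93 is lower on the arrays of 18 months in both genotypes.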

How the data were processed

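Per the file headers, spot intensities were read with Agilent Feature Extraction 10.7.3.1, which subtracted local background and corrected spatial trends, with no scaling between arrays. The authors' deposited series table holds log2 values, and limma is named in the submitters' processing notes with no version given. Its columns had medians between 6.606 and 6.622 and kept the probe order of the raw median signal. From this it was taken to be log2 signal, quantile-normalized and not background-subtracted, which no source states. It served as an alternative only.

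The processed intensity of non-control spots was put on the log2 scale, spots of a probe were averaged after leaving out flagged outliers (98 to 182 per array, with 0 saturated), and the array's 75th percentile was subtracted. Kept probes were those well above background on every array of 1 or more groups. With 1 mean per group, all 33074 kept probes were fitted with limma 3.58.1 (R 4.3.3 and version 1.17.8 of data.table), with 12 residual and 2.94 prior degrees of freedom. Tables and figures were produced under Python 3.11.15, pandas 2.3.3 and matplotlib 3.10.9. There were 7 contrasts. The number of arrays limits the precision, and p-values reflect only the spread among them, part of which may be technical. The fit was tested on simulated data.

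Complement members and all gene lists were chosen with earlier results of these data known. The rule for named genes took every member probe and, of the wider list, genes called in any contrast and the 2 with the smallest p in each simple contrast. Symbols matched the RefSeq table for all 11 probes. That table was used for names only. No genome annotation of the files' build was used here, so exon and untranslated-region limits are not given. Sequences are those of the probes in the scanner files.

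Alternatives were normexp background correction (offset 50), quantile and median scaling, other filters on dim probes, 1 value per gene, the deposited log2 values, trended and robust eBayes, fits of the compared groups only, the replicate number as a block, and leaving out each array.

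Nothing in the labels says that replicate numbers pair the samples, so the main fit had no replicate block. Correlations of same-numbered deviations ran from -0.42 to 0.25 over 24 pairs. Those of other-numbered deviations ran from -0.49 to 0.63 over 72 pairs. These correlations cannot decide whether animals were paired.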

Additional observations from a re-analysis of the deposited data

Results flagged for a closer look

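In 68 combinations of a group and a probe (members and the 6 named genes of the wider list), 3 had 1 array far from the other 3. The gap to the nearest array, divided by the range of the group, was above the 95% critical value of Dixon's test. By chance about 1 in 20 such groups passes this value. The combinations share arrays and are not independent, so the number flagged cannot be set against that rate. C1qa was 2.57 on young deficient array 1, and 1.94 to 2.001 on the other 3 arrays. C1qb was 2.67 on the same array, and 1.46 to 1.59 on the others. C5ar1 was -7.89 on young wild-type array 3, and -6.25 to -6.01 on the others, of which 1 was well above background. Young deficient array 1 is also the array that stood apart on the first principal component.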

How the results depend on the processing

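The age difference of C4b was called in deficient brains and averaged over genotypes under all alternatives run. It ranged over 1.07 to 1.18 in deficient brains and 0.94 to 1.04 in the average. In wild-type brains it ranged over 0.74 to 0.93 and was called under all alternatives but the fit of the 2 wild-type groups alone, where the count of called members was 0 and not 1 (adjusted p = 0.105). That fit holds fewer arrays. Leaving out each of the 16 arrays left 1 called member for age in each genotype and in their average, and 0 in the other contrasts. Over 1752 values of differences that were not called, 0 were called under an alternative, and 58 changed sign, all from differences of at most 0.34. With no filter on dim probes C5ar1 entered the fit as a further probe and was not called. Signal over background limits C5ar1, C3ar1, Fcna and Itgax.

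The replicate number as a block changed 0 calls of members, with C4b at 1.14 (adjusted p = 0.00514) in deficient and 0.83 (adjusted p = 0.0287) in wild-type brains. It ended 1 call of the wider list, that of Cd93 (adjusted p = 0.0549). Nothing in the labels says that the numbers pair the samples. Beyond the cases in the report, Cd93 lost its averaged call with no filter on dim probes (adjusted p = 0.0578) and gained one for age in deficient brains in the deposited table (adjusted p = 0.0460). Fcna lost its call at 18 months when only these 2 groups were fitted (adjusted p = 0.0685), at 4 months with no filter (adjusted p = 0.0665) and averaged over ages with normexp (adjusted p = 0.0597). Itgax gained a call for age averaged over genotypes under 6 alternatives (adjusted p = 0.0278 to 0.0482). The cause of these changes was not tested.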
